A study of Mus musculus with 9 samples.

Results

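Interferon-induced genes were followed in long-term haematopoietic stem cells (LT-HSCs) of 3 mouse genotypes. The set held 40 genes, listed by symbol and found once each among the 22322 genes of the deposited table. Of these, 30 were taken as targets of type I interferon and 10 as targets of interferon-gamma. The division follows textbook use, although many of the genes answer to both. It was made with earlier results of these data known. LT-HSCs had been sorted from bone marrow as the CD150+, CD48- and CD135- cells of the Lin-, Sca-1+ and c-Kit+ fraction. All mice were of the C57BL/6 strain and 6 to 8 weeks old, and 500 to 800 cells of 1 mouse made each library. There were 3 wild-type (WT) mice, 3 Cxcl10-/- mice, which lack an interferon-induced chemokine, and 3 Cxcr3-/- mice, which lack the receptor of that chemokine. No interferon treatment or infection is given for any group. Which part of each gene was deleted, and in which cells, is not given in the sources used here, nor is a litter or day of preparation.

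Type I interferons bind the receptor IFNAR and act through a complex that holds STAT2 and IRF9 on a DNA element called the ISRE. Interferon-gamma binds the receptor IFNGR and acts on an element called GAS, and it raises IRF1, which can then act on ISREs. Both kinds of interferon are known to drive dormant haematopoietic stem cells into cycle. The immunity-related GTPase IRGM1, one of the interferon-gamma targets, is known to be needed for the upkeep of these cells in mice.

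Sequences upstream of the start site were compared because the genes were grouped by the interferon that they answer to. RefSeq promoter windows of GRCm38.p6, with 250 bases before and 50 after the start, were found for 31 of the 40 genes. The ISRE core was searched as GAAA, any 2 bases and GAAA, and the GAS as TTCNNNGAA, on both strands, with overlapping matches allowed. An ISRE core was present in 16 of the 31 genes (51.6%), against 3.99% of the 27025 genes with a window. A GAS was present in 11 of the 31 (35.5%), against 9.55% of all genes. Among the 9 interferon-gamma targets with a window, 7 held the ISRE core and 5 the GAS, while among the 22 type I targets 9 and 6 did. A match describes letters only, not a bound site. Below are stretches of 120 bases from before the start, chosen to end before any exon annotated in GENCODE M21. Capitals mark the GAS and the ISRE core on either strand, so a pair of TTTC 2 bases apart is the core read from the other strand. The 3 GTPase genes come first because their GAS and ISRE core lay side by side.
Irgm2, chr11:58214857-58214976, plus strand: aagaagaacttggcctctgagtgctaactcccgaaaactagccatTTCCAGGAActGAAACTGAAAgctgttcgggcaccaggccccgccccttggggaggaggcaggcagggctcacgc
Igtp, chr11:58199436-58199555, plus strand: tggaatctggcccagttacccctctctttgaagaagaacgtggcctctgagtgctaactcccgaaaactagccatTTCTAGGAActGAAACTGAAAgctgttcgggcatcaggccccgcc
Tgtp1, chr11:48992259-48992378, minus strand: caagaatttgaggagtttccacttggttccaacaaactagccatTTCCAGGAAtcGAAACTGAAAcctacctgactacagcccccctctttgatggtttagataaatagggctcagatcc
Gbp3, chr3:142559906-142560025, plus strand: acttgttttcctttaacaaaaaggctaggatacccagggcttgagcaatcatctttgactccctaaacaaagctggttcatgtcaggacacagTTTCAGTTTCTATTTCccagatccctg
Gbp7, chr3:142530216-142530335, plus strand: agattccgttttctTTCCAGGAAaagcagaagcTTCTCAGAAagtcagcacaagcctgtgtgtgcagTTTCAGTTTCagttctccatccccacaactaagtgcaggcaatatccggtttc
Irf1, chr11:53769894-53770013, plus strand: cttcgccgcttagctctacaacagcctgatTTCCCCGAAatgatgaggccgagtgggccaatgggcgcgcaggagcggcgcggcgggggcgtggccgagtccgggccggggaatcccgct
Ifit1, chr19:34640751-34640870, plus strand: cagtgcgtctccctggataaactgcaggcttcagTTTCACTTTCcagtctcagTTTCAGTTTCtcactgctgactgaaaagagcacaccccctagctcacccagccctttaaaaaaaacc
Ubd, chr17:37193772-37193891, plus strand: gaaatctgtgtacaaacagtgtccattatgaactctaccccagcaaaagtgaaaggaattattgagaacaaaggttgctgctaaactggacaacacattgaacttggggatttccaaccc
Trim25, chr11:88999256-88999375, plus strand: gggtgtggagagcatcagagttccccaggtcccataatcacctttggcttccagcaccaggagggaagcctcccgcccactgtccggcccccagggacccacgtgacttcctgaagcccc

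In Irgm2, Igtp and Tgtp1 a GAS was followed after 2 bases by an ISRE core. In Irgm2 these letters lay between 75 and 55 bases before the start, in Igtp between 45 and 25 bases and in Tgtp1 between 88 and 68 bases. This order and spacing, searched on both strands after it had been seen in these genes, was found in 5 of the 27025 genes. The others were Tgtp2 and Gm12185, which belong to the same GTPase family as Tgtp1. Gbp3 carried 2 overlapping ISRE cores within 45 to 30 bases of the start, and Gbp7 carried 1 core and 2 GAS elements. The stretch of Irf1 held a GAS and no ISRE core, and that of Ifit1, a type I target, held 2 ISRE cores and no GAS. The stretches of Ubd and Trim25, the 2 genes called in both comparisons with Cxcl10-/-, held neither element.

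The 9 libraries held between 12098498 and 17904629 expected counts. In all 3 genotypes the markers of haematopoietic stem cells (Slamf1, Kit, Procr, Mecom and 11 others) were present: 15 of 15 reached a mean of 1 FPKM (fragments normalised to transcript length and library size), and their sum ranged from 843 to 1019 FPKM over the libraries. Slamf1, which encodes the sort marker CD150, was at 6.87, 7.4 and 5.23 FPKM in WT, 0.69, 0.71 and 4.12 FPKM in Cxcl10-/- and 5.65, 9.24 and 7.43 FPKM in Cxcr3-/-, all Cxcl10-/- libraries being below WT (-1.87 ± 0.69, edgeR adjusted p = 0.119). Kit fell in Cxcl10-/- against WT by 0.75 ± 0.17 (edgeR adjusted p = 0.0260), at 98.1, 109.8 and 106 FPKM in WT, 81.4, 72.3 and 45.8 FPKM in Cxcl10-/- and 127, 109 and 110.3 FPKM in Cxcr3-/-. Of the 15 markers edgeR called 1 lower and 0 higher in that comparison, and 7 log2 fold changes lay above 0 and 8 below. Hoxb5 was higher there without overlap, at 4.66, 2.7 and 3.3 FPKM in WT and 9.74, 6.46 and 7.02 FPKM in Cxcl10-/-. Kit and Cd34 were higher in Cxcr3-/- than in Cxcl10-/- (edgeR adjusted p = 0.0133 and 0.0476), and the other 13 were not called. Transcripts of 2 markers that the sort selected against were also read. Cd48 was at 17.8, 20.1 and 8.76 FPKM in WT, 0, 7.94 and 0 FPKM in Cxcl10-/- and 7.24, 19.55 and 0.18 FPKM in Cxcr3-/-. Flt3, which encodes CD135, was at 4.17, 6.08 and 4.75 FPKM in WT, 13.8, 9.7 and 6.45 FPKM in Cxcl10-/- and 6, 6.91 and 8.61 FPKM in Cxcr3-/-. The deleted gene served as a check of the labels. Cxcl10 had 0 counts in every Cxcl10-/- library, while the WT libraries had 36, 84 and 3 and the Cxcr3-/- libraries 112 or more. Cxcr3 was read in 1 WT library, with 8 counts, and had 0 in the other 8 libraries, so it cannot check the Cxcr3-/- label. The Cxcl10-/- libraries stood apart from the rest: 12 endothelial markers summed to between 530 and 718 FPKM there, against 64.2 to 85.6 FPKM in WT and 42.9 to 86.8 FPKM in Cxcr3-/-. Most of the sum in Cxcl10-/- was Fabp4, at 287, 455 and 341 FPKM, against 5.67, 18.2 and 5.92 FPKM in WT. Without overlap 10 of the 12 were higher in Cxcl10-/- than in WT. Emcn and Tek, which made up most of the WT sum, did not rise. Markers of stromal and bone cells summed to 82.5 to 341 FPKM in Cxcl10-/-, 2.03 to 6.85 FPKM in WT and 1.55 to 3.32 FPKM in Cxcr3-/-. In Cxcl10-/- this was mostly Cxcl12 (14.1, 119 and 10.8 FPKM), Ibsp (22.9, 81.45 and 16.2 FPKM) and Sparc (57, 103 and 54.9 FPKM). Adipoq, Lepr and Col1a2 were highest in Cxcl10-/- 2. Bglap was at 0 in every library, Col1a1 and Col3a1 were at or below 0.98 FPKM, and the mean of Pdgfrb was not higher than in WT. Markers of other cells were read too. Erythroid markers summed to 90.1 to 656 FPKM in Cxcl10-/- and 51.3 to 99.3 FPKM in WT, ranges that overlapped. Neutrophil markers summed to 164 to 333 and 124 to 162 FPKM, but of the 5 tested 0 passed in edgeR and 2 were higher in DESeq2. Among them Prtn3 overlapped, at 144, 153 and 149 FPKM in Cxcl10-/- and 133, 112 and 151 FPKM in WT, and S100a8 reached 148 FPKM in Cxcl10-/- 2. Of the macrophage markers, Vcam1 was at 19.8, 35.9 and 23.2 FPKM in Cxcl10-/- and 0.69, 1.63 and 3.77 FPKM in WT, although the sum of that list was lower in Cxcl10-/-. Transcripts of the mitochondrial genome took 3.57 to 4.13% of the counts in Cxcl10-/-, 12.6 to 13.1% in WT and 10.2 to 11.2% in Cxcr3-/-. In bulk samples, fewer cells of a type and less RNA per cell cannot be told apart. Each library is 1 mouse, so the spread between libraries holds the spread between mice.

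Most interferon-induced genes were expressed in the WT cells, over a wide range of levels. Their median was 20.0 FPKM, against 9.92 FPKM over the 10866 genes that averaged 1 FPKM or more and were tested. In WT, 2 of the 40 genes were at 1000 FPKM or more, 2 between 100 and 1000 FPKM, 22 between 10 and 100 FPKM, 13 between 1 and 10 FPKM and 1 under 1 FPKM. Ifitm1 and Ifitm3 stood at the top of this range. Ifitm1, whose product sits in membranes and hinders the entry of viruses, was at 4038, 4068 and 4211 FPKM in WT, 3895, 3909 and 4165 FPKM in Cxcl10-/- and 1804, 3424 and 3327 FPKM in Cxcr3-/-. Its relative Ifitm3 was at 2157, 2443 and 2354 FPKM in WT, 2824, 2984 and 3025 FPKM in Cxcl10-/- and 1488, 2348 and 2048 FPKM in Cxcr3-/-. Rtp4, which encodes a Golgi chaperone of receptors, was at 166, 202 and 149 FPKM in WT, 179, 225 and 72.2 FPKM in Cxcl10-/- and 55.5, 115 and 65.4 FPKM in Cxcr3-/-. For Rtp4 the Cxcr3-/- libraries were all below WT, and 1 Cxcl10-/- library was as low. After these came Ifi27, which encodes a small protein of mitochondrial and nuclear membranes, with 123, 158 and 117 FPKM in WT, 118, 129 and 156 FPKM in Cxcl10-/- and 117, 94.6 and 87.8 FPKM in Cxcr3-/-. Tgtp1, a GTPase that attacks the vacuoles of parasites, was at 88.1, 103 and 102 FPKM in WT, 111, 82.3 and 126 FPKM in Cxcl10-/- and 67.9, 171 and 59.4 FPKM in Cxcr3-/-. Ifitm1 stood above Ifitm3 in every library, and both stood far above Rtp4. The Cxcr3-/- 1 library was the lowest of the 9 for both Ifitm genes and for Rtp4.

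**Figure D1:**
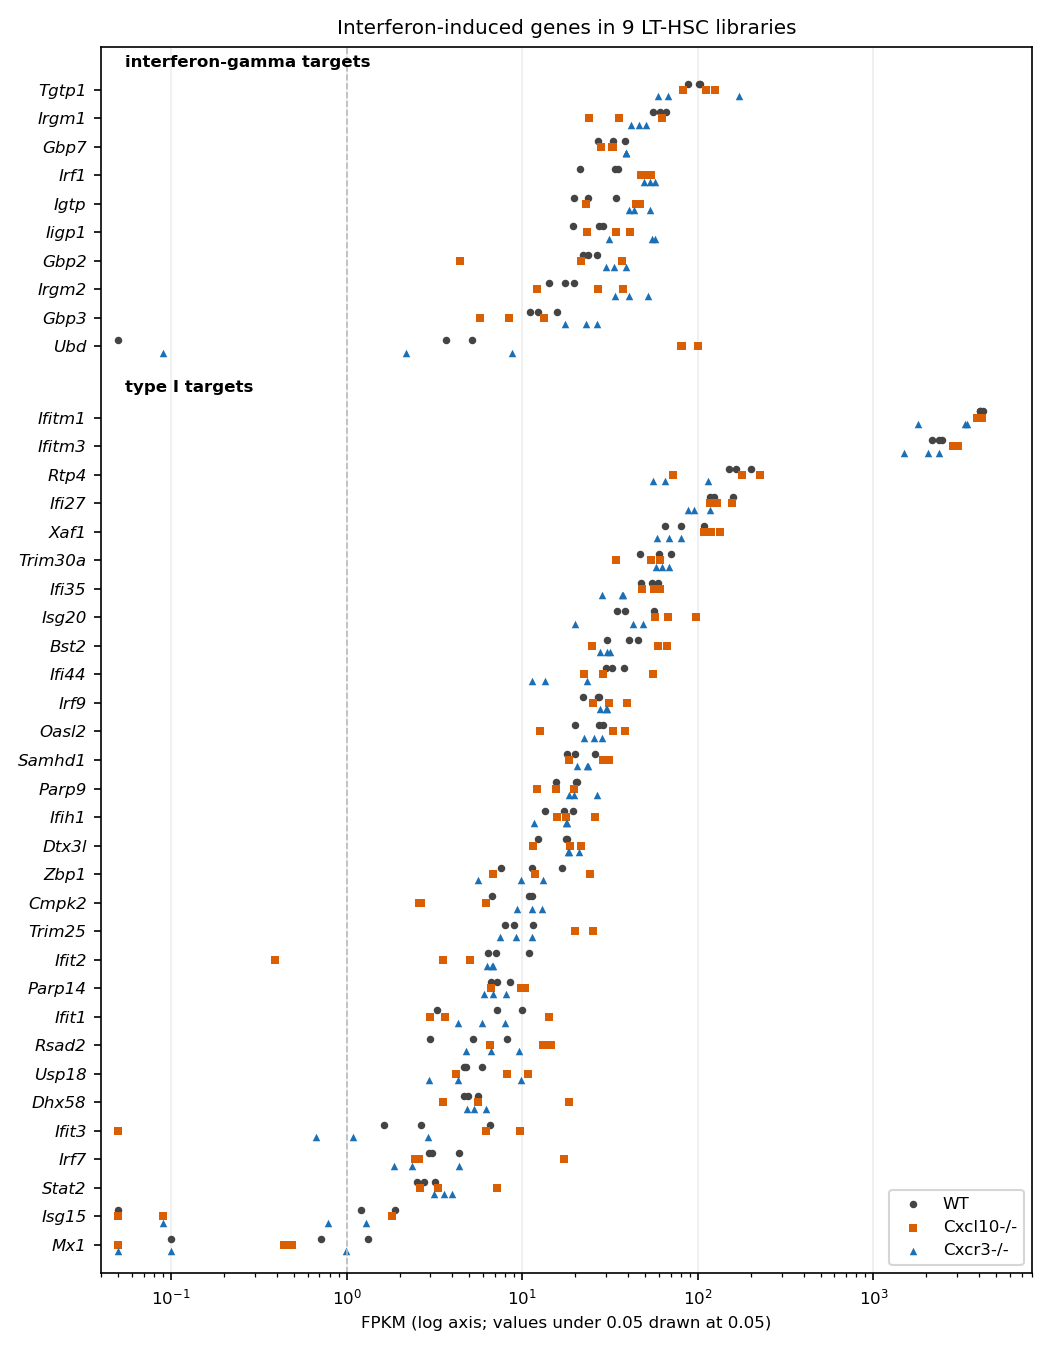
Level of each of the 40 interferon-induced genes in FPKM (log axis), with 1 point per library, circles for WT, squares for Cxcl10-/- and triangles for Cxcr3-/-, ordered by the WT mean within each class. Ifitm1 and Ifitm3 lie above 1000 FPKM in every library, while Isg15 and Mx1 lie around or below the dashed line at 1 FPKM, and the Cxcl10-/- squares of Ubd lie far to the right of the other points of that gene.

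Low levels were found in genes that interferon is best known to induce. Isg15, a ubiquitin-like protein joined to other proteins, was at 1.88, 1.21 and 0 FPKM in WT, 0, 1.81 and 0.09 FPKM in Cxcl10-/- and 0.78, 0.09 and 1.29 FPKM in Cxcr3-/-. Mx1, an antiviral GTPase, was at 1.32, 0.1 and 0.71 FPKM in WT, 0, 0.44 and 0.49 FPKM in Cxcl10-/- and 0.1, 0.99 and 0.03 FPKM in Cxcr3-/-. Both had a mean under 1 FPKM over the 9 libraries and were not tested, which left 38 genes. The Mx1 allele carried by the strain of these mice was not examined. The low level of Mx1 is therefore not taken as a measure of interferon signalling in these cells. Irf7, which amplifies the production of type I interferon, was at 3.05, 4.35 and 2.94 FPKM in WT, 17.4, 2.45 and 2.57 FPKM in Cxcl10-/- and 4.39, 2.36 and 1.87 FPKM in Cxcr3-/-. Cxcl10-/- 1 was far above the other 8 libraries for Irf7. Stat2 was highest in the same library, with 2.52, 3.19 and 2.76 FPKM in WT, 7.22, 2.61 and 3.3 FPKM in Cxcl10-/- and 3.96, 3.59 and 3.14 FPKM in Cxcr3-/-. Irf9, the DNA-binding partner of STAT2, was higher than either, with 22.1, 27.2 and 27.5 FPKM in WT, 39.7, 31.2 and 25.3 FPKM in Cxcl10-/- and 30.3, 27.9 and 29.9 FPKM in Cxcr3-/-. The Cxcr3-/- libraries of Irf9 lay just above all WT libraries, and those of Cxcl10-/- overlapped with both. Irf9, Irf1, Irf7, Ifi35, Usp18, Rtp4, Dhx58, Parp9, Dtx3l and Gbp7 overlap other annotated genes, and the strand used in counting is not given in the sources used here, so reads of such pairs may have been shared.

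The interferons themselves were close to absent at this depth. Of 21 interferon genes in the table, none reached a mean of 1 FPKM. Ifnb1 was listed at 0 in all libraries, and Ifng was above 0 in 1 library, a Cxcr3-/- one, at 0.07 FPKM. The highest readings were Ifnk at 2.04 FPKM (21 counts) in Cxcr3-/- 1 and Ifnz at 0.86 FPKM in Cxcl10-/- 2. Receptors and their signalling partners were expressed, and 14 of 16 such genes were tested. In Cxcl10-/- against WT 1 of the 14 passed, where 7.22% of all genes did, and in the other comparisons none passed. This was Stat3, a signal transducer of cytokine and interferon receptors, which rose in Cxcl10-/- against WT by 0.76 ± 0.19 (log2 fold change ± SE, edgeR adjusted p = 0.0377), with 14.7, 16.1 and 18.1 FPKM in WT, 29.9, 25.2 and 32.6 FPKM in Cxcl10-/- and 25.5, 21.9 and 21.5 FPKM in Cxcr3-/-. The Stat3 call was lost when any of 6 libraries was left out (3 WT, Cxcl10-/- 3, Cxcr3-/- 2 or 3), with adjusted p up to 0.146, and after a correction for GC content and length, chosen after the data had been seen (edgeR adjusted p = 0.0880). Ifngr1, the ligand-binding chain of the interferon-gamma receptor, was at 44.9, 38 and 41.9 FPKM in WT, 44.5, 75.5 and 20.2 FPKM in Cxcl10-/- and 19.1, 24.8 and 22.4 FPKM in Cxcr3-/-. All 3 Cxcr3-/- libraries of Ifngr1 were below all WT libraries, but the difference did not pass (-0.997 ± 0.36, edgeR adjusted p = 0.713). Of 7 tested negative regulators and 11 tested genes of nucleic acid sensing, none passed in any of the 3 comparisons by edgeR. At an unadjusted p under 0.05, 1 sensing gene was higher and 2 were lower in Cxcl10-/- against WT, and 1 was higher and 1 lower in Cxcr3-/- against Cxcl10-/-, where 24.3% and 26.2% of all genes were past that threshold. No negative regulator was past it in any comparison. By limma none passed, and DESeq2 called 1 sensing gene lower in Cxcl10-/- against WT.

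Loss of Cxcl10 was compared with WT first. Of the 38 tested genes, 2 passed in edgeR's quasi-likelihood test with Benjamini-Hochberg adjustment over all 10866 genes, both higher in Cxcl10-/-. Over all genes 7.22% passed, 3.52% higher and 3.7% lower. The share among the interferon-induced genes was therefore near that of the whole table. The median log2 fold change was 0.18 over the tested members and 0.06 over all genes. It was 0.18 for type I targets and 0.19 for interferon-gamma targets, and over 20 settings of the analysis it ranged from 0.03 to 0.18 and from 0.10 to 0.31. Without Cxcl10-/- 1 the medians were 0.03 and 0.11, against 0.03 over all genes. limma on log2(FPKM + 1) also called 2 genes higher and none lower, where it called 9.28% of all genes, 6.1% higher and 3.18% lower, and DESeq2 called 3 higher and 1 lower, against 13.8% of all genes, 6.61% higher and 7.18% lower. At an unadjusted p under 0.05, 3 of the 38 were higher and 3 lower in edgeR, against 24.3% of all genes, 12.3% higher and 12% lower.

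**Figure D2:**
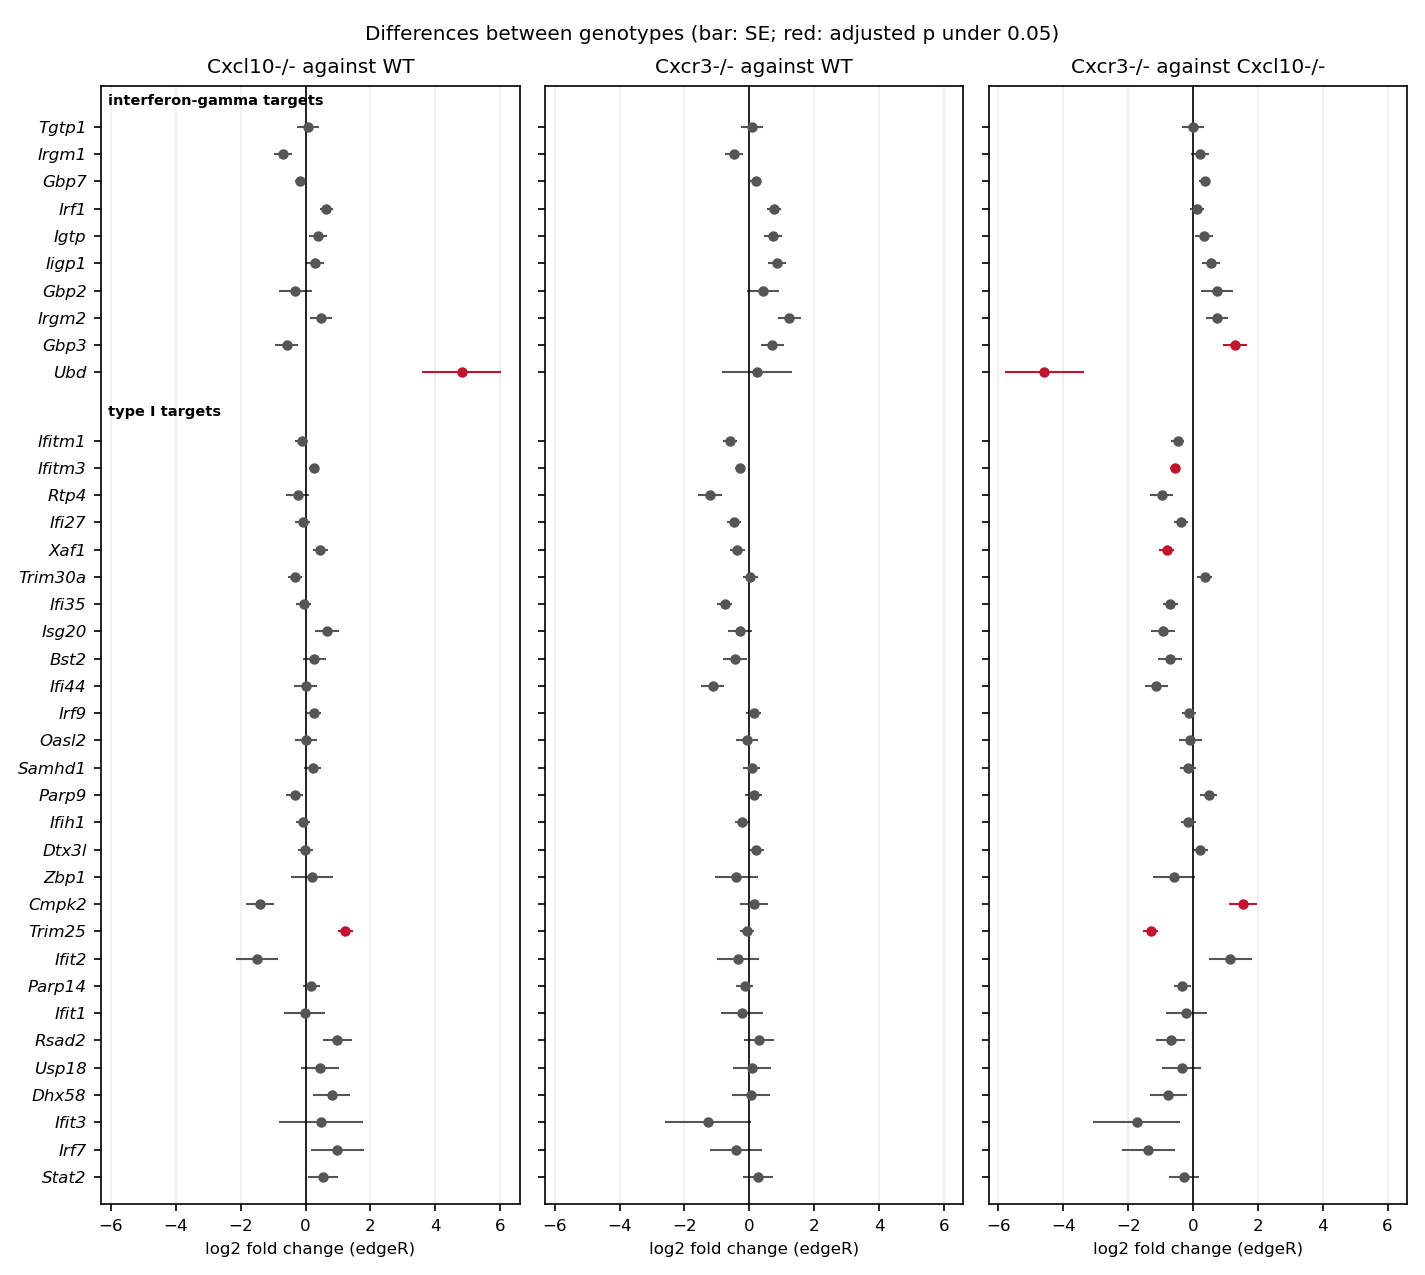
Log2 fold change of the 38 tested genes in edgeR (points, with bars of 1 SE) for the 3 comparisons, interferon-gamma targets above type I targets, with adjusted p under 0.05 in red. The red points are Ubd and Trim25 on the left, none in the middle panel and 6 genes on the right, and in the middle panel 9 of the 10 interferon-gamma targets lie to the right of 0.

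Ubd and Trim25 were the 2 genes that rose in Cxcl10-/-. Ubd encodes FAT10, a ubiquitin-like protein that sends its partners to the proteasome and is induced by interferon-gamma and TNF. Its level was 0, 3.66 and 5.16 FPKM in WT, 81.5, 80.3 and 100.01 FPKM in Cxcl10-/- and 8.72, 2.17 and 0.09 FPKM in Cxcr3-/-. The 3 Cxcl10-/- libraries were all high, and the 6 others were all below 10 FPKM. The log2 fold change of Ubd against WT was 4.81 ± 1.22 (edgeR adjusted p = 0.0367), and its counts were 0, 52 and 86 for WT, and 1028, 1056 and 1476 for Cxcl10-/-. Trim25, a ubiquitin ligase that acts on the RNA sensor RIG-I, was at 7.95, 8.94 and 11.5 FPKM in WT, 25.4, 25.2 and 19.9 FPKM in Cxcl10-/- and 11.4, 9.27 and 7.51 FPKM in Cxcr3-/-. Every Cxcl10-/- library was above every library of the other genotypes. The log2 fold change of Trim25 against WT was 1.22 ± 0.23 (edgeR adjusted p = 0.00995). Endothelial markers moved with both genes, with 6 of 12 called higher in Cxcl10-/- against WT and all 12 at a mean of at least 1 FPKM there, against 5 of 12 in WT. Their part in the result was not tested. The Ubd call was lost without any 1 of the 3 WT libraries, without Cxcl10-/- 3 and without Cxcr3-/- 2, with adjusted p between 0.0513 and 0.134, and the Trim25 call was lost without WT 1 and without WT 2 (adjusted p = 0.0544 and 0.0617).

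**Figure D3:**
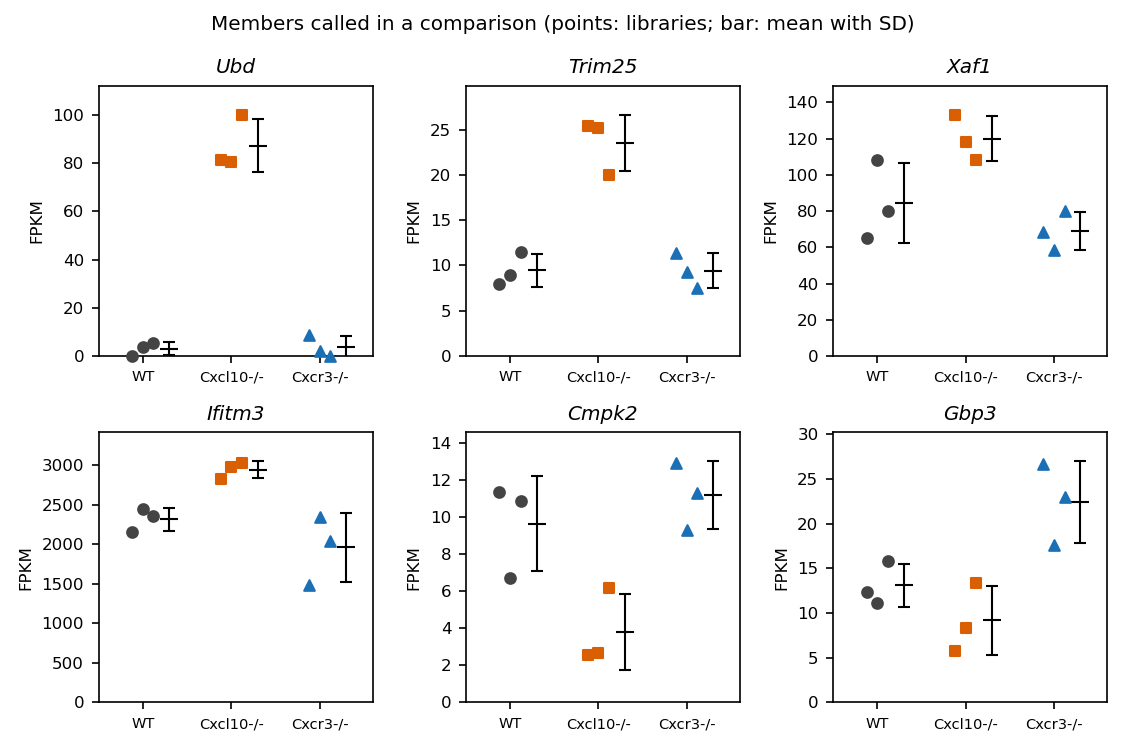
FPKM per library (points) with the mean and SD of 3 libraries (bars) for the 6 genes called in any comparison. The Cxcl10-/- libraries of Ubd and Trim25 lie above all others, those of Cmpk2 lie below all others, and the Cxcr3-/- libraries of Gbp3 lie above all others.

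Counting genes whose Cxcl10-/- and WT libraries did not overlap, 6 of the 38 were higher, Ubd and Trim25 among them, and 2 were lower. Over all genes 18.3% were higher and 11.9% lower in this sense, so neither count of members stood above the share over all genes. Irf1, the factor that relays the interferon-gamma signal, was at 21.4, 33.6 and 35.3 FPKM in WT, 54.3, 47.7 and 48.7 FPKM in Cxcl10-/- and 53.5, 57.4 and 49.6 FPKM in Cxcr3-/-. The Cxcl10-/- and the Cxcr3-/- libraries of Irf1 all lay above the WT libraries. Its log2 fold change in Cxcl10-/- was 0.64 ± 0.21 and did not pass (edgeR adjusted p = 0.0870), whereas DESeq2 gave an adjusted p of 0.0463. Isg20, an exonuclease of RNA, was at 38.6, 34.5 and 56.4 FPKM in WT, 67.9, 98.1 and 57.4 FPKM in Cxcl10-/- and 19.9, 48.4 and 43 FPKM in Cxcr3-/-. Cxcl10-/- was highest for Isg20, with its lowest library just above the highest WT library, and the difference did not pass (0.65 ± 0.37, edgeR adjusted p = 0.308). Xaf1, a partner of the apoptosis inhibitor XIAP, was at 65.3, 108 and 79.9 FPKM in WT, 133, 118 and 108 FPKM in Cxcl10-/- and 68.4, 58.6 and 79.98 FPKM in Cxcr3-/-. The lowest Cxcl10-/- library of Xaf1 was barely above the highest WT library, and the difference did not pass (0.45 ± 0.23, edgeR adjusted p = 0.252). The transcript length implied by the ratio of its counts to its FPKM varied from 1025 to 1403 bases between libraries. Ifitm3, given above, was the other gene whose Cxcl10-/- libraries all exceeded WT.

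The 2 genes that were lower without overlap had antiviral products. Cmpk2, a nucleotide kinase of mitochondria that is encoded next to the antiviral gene Rsad2, was at 11.4, 6.7 and 10.9 FPKM in WT, 2.58, 2.65 and 6.19 FPKM in Cxcl10-/- and 12.96, 9.3 and 11.3 FPKM in Cxcr3-/-. Its Cxcl10-/- libraries were all below the 6 others. The log2 fold change against WT was -1.41 ± 0.43 and did not pass in edgeR (adjusted p = 0.0679), while DESeq2 gave 0.0220. Leaving out 1 library at a time, it ranged from -2.004 to -1.18 and its edgeR adjusted p from 0.0143 to 0.205 over 9 cases. The lowest adjusted p came without Cxcl10-/- 3, the Cxcl10-/- library nearest to WT. Rsad2 itself was at 5.26, 2.98 and 8.17 FPKM in WT, 13.2, 6.51 and 14.5 FPKM in Cxcl10-/- and 6.63, 9.56 and 4.81 FPKM in Cxcr3-/-, and its groups overlapped. Ifit2, which binds viral RNA, was at 10.9, 6.35 and 7.09 FPKM in WT, 0.39, 3.52 and 5.01 FPKM in Cxcl10-/- and 6.75, 6.27 and 6.78 FPKM in Cxcr3-/-. Cxcl10-/- was lowest for Ifit2, with 1 library near 0, and the difference did not pass (-1.498 ± 0.66, edgeR adjusted p = 0.187). Cmpk2 and Ifit2 lay lower, and Irf1, Isg20 and Ubd higher, in the same 3 libraries. Among these genes only Ubd passed in edgeR. Irgm1, the GTPase with a known part in stem cell upkeep, was at 55.8, 66.1 and 61.2 FPKM in WT, 35.5, 62.5 and 24.1 FPKM in Cxcl10-/- and 41.4, 50.4 and 46.3 FPKM in Cxcr3-/-. Cxcl10-/- 1 and 3 were low for Irgm1, and Cxcl10-/- 2 lay inside the WT range (-0.69 ± 0.27, edgeR adjusted p = 0.146). Leaving out 1 library at a time, the log2 fold change of Irgm1 ranged from -1.09 to -0.46 and its edgeR adjusted p from 0.0157 to 0.332 over 9 cases. The lowest adjusted p came without Cxcl10-/- 2, the library inside the WT range, so it adds no evidence of a fall.

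Loss of Cxcr3 was compared with WT next, and no interferon-induced gene passed. edgeR called 0 of the 38 genes and 0% of the 10866 genes, and limma called none either. At an unadjusted p under 0.05, edgeR had 4 of the 38 genes higher and 4 lower, against 6.27% of all genes, 2.37% higher and 3.9% lower. DESeq2 called 2 of the 38 higher (Irf1 and Irgm2) and 1 lower (Rtp4), against 0.718% of all genes, 0.156% higher and 0.561% lower. It gave no adjusted p in this comparison for most of the 38, Ifi35, Ifi44, Igtp, Gbp2 and Gbp3 among them. Genes without an adjusted p were counted as not called, so DESeq2 did not judge them. All 4 genes on the higher side at an unadjusted p under 0.05 were interferon-gamma targets, and all 4 on the lower side were type I targets. The division into classes was made with earlier results of these data known, so this split is a description and not a test. Without overlap between the groups, 9 genes were higher and 5 lower in Cxcr3-/-, against 12.1% and 7.63% of all genes. Of the 10 interferon-gamma targets 7 were higher and 1 lower without overlap, and of the 28 type I targets 2 were higher and 4 lower. The median log2 fold change was 0.57 over the interferon-gamma targets, -0.22 over the type I targets and 0.02 over all genes. Over 20 settings of the analysis, the first ranged from 0.47 to 0.87 and the second from -0.28 to -0.08.

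**Figure D4:**
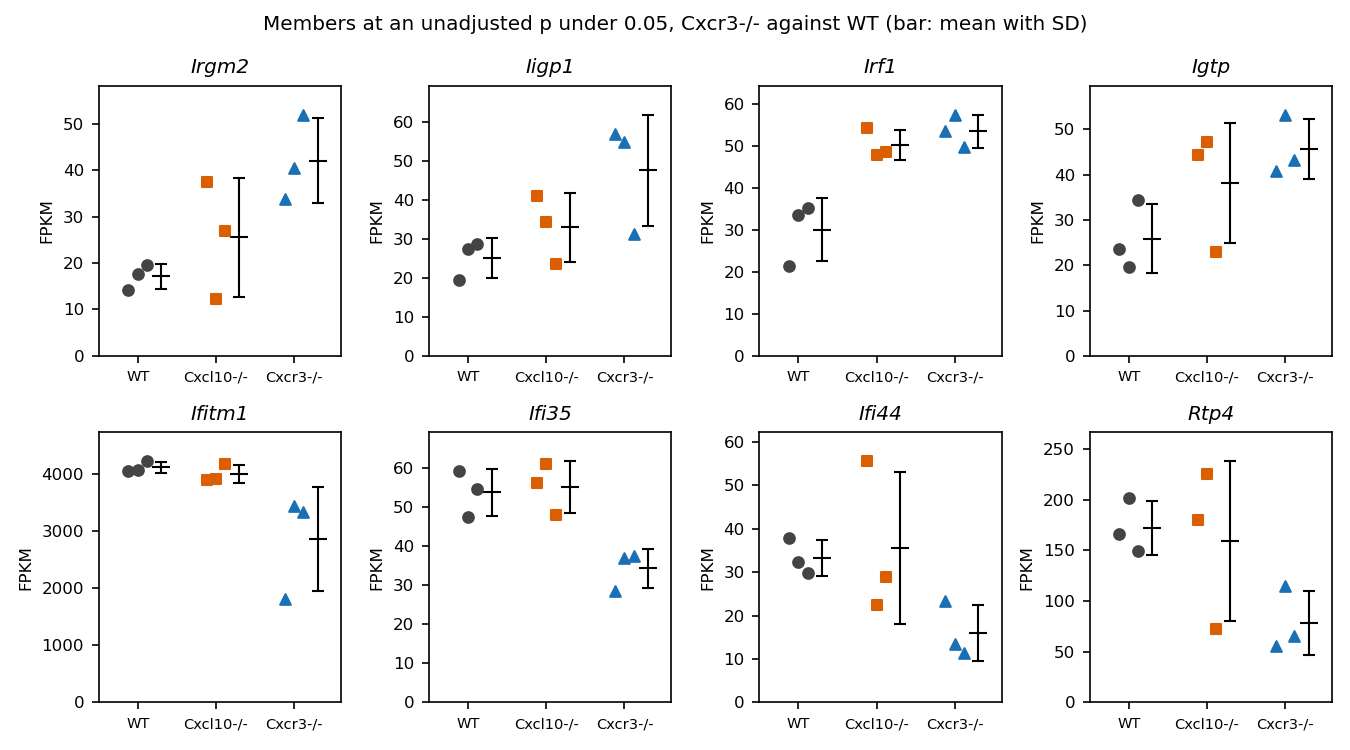
FPKM per library (points) with the mean and SD of 3 libraries (bars) for the 8 genes with an unadjusted p under 0.05 in Cxcr3-/- against WT. In the upper row the Cxcr3-/- libraries of Irgm2, Iigp1, Irf1 and Igtp lie above all WT libraries, and in the lower row those of Ifitm1, Ifi35, Ifi44 and Rtp4 lie below all WT libraries.

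The interferon-gamma targets on the higher side were Irf1 and members of the immunity-related GTPase family, whose products coat and break the vacuoles of pathogens or regulate each other. Irgm2 was at 14.3, 17.6 and 19.7 FPKM in WT, 37.5, 12.2 and 26.8 FPKM in Cxcl10-/- and 33.8, 40.4 and 51.9 FPKM in Cxcr3-/-. All Cxcr3-/- libraries of Irgm2 were above all WT libraries, and Cxcl10-/- was spread over both. Its log2 fold change was the largest of the class, 1.24 ± 0.35 (edgeR adjusted p = 0.642, DESeq2 0.0259). Igtp, also called Irgm3, was at 23.6, 19.7 and 34.3 FPKM in WT, 44.4, 47.1 and 23.1 FPKM in Cxcl10-/- and 40.8, 53.2 and 43.2 FPKM in Cxcr3-/-. The Cxcr3-/- libraries of Igtp were again above WT, by 0.73 ± 0.29 (edgeR adjusted p = 0.727). Irgm2 and Igtp overlap on the same strand in GENCODE M21, so how counting divided their reads is uncertain. Iigp1, also called Irga6, was at 19.3, 27.3 and 28.7 FPKM in WT, 40.9, 34.3 and 23.5 FPKM in Cxcl10-/- and 56.7, 54.7 and 31.2 FPKM in Cxcr3-/-. Cxcr3-/- 3 was close to the WT range for Iigp1, and the other two Cxcr3-/- libraries were well above it (0.85 ± 0.27, edgeR adjusted p = 0.642). Irf1 was higher by 0.77 ± 0.21 with an edgeR adjusted p of 0.642, and by DESeq2 its adjusted p was 0.0414. Irgm1 went the other way, with all Cxcr3-/- libraries below WT (-0.48 ± 0.27). Tgtp1, which carries the same GAS and ISRE arrangement as Irgm2 and Igtp, had 1 Cxcr3-/- library above and 2 below the WT range (0.09 ± 0.34). Tgtp1 has a near-identical copy, Tgtp2, and overlaps Gm12185, so its values are uncertain too.

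The guanylate-binding proteins, large GTPases that open the vacuoles of bacteria and parasites, gave 3 more members of this class, beside Ubd. Gbp2 was at 26.7, 23.7 and 22.2 FPKM in WT, 37.1, 21.7 and 4.41 FPKM in Cxcl10-/- and 39.2, 33.2 and 29.9 FPKM in Cxcr3-/-. Gbp3 was at 12.4, 11.1 and 15.8 FPKM in WT, 5.75, 8.37 and 13.4 FPKM in Cxcl10-/- and 26.6, 17.6 and 22.96 FPKM in Cxcr3-/-, and Gbp7 was at 26.9, 38.4 and 32.97 FPKM in WT, 32.5, 28 and 32.9 FPKM in Cxcl10-/- and 39.04, 38.8 and 39.02 FPKM in Cxcr3-/-. For all 3 genes every Cxcr3-/- library was above every WT library, by a narrow margin in Gbp7, and no difference passed in edgeR. Summed over the 3, the GBP level was 89.6 to 105 FPKM in Cxcr3-/-, 65.9 to 73.2 FPKM in WT and 50.6 to 75.3 FPKM in Cxcl10-/-. With the 7 other guanylate-binding protein genes of the lists added, which was done after the values had been seen, the sum was 119 to 148 FPKM in Cxcr3-/-, 97.6 to 105 FPKM in WT and 66.5 to 123 FPKM in Cxcl10-/-, so that Cxcr3-/- and Cxcl10-/- overlapped. Gbp6 was at 39.3 FPKM in Cxcl10-/- 2, far above its other libraries. Cxcl10-/- 3 was far lower than the rest for Gbp2. Gbp5, which is outside the set, was at 1.96, 1.71 and 2.95 FPKM in WT, 0, 0.18 and 0.02 FPKM in Cxcl10-/- and 1.94, 3.8 and 0.9 FPKM in Cxcr3-/-.

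**Figure D5:**
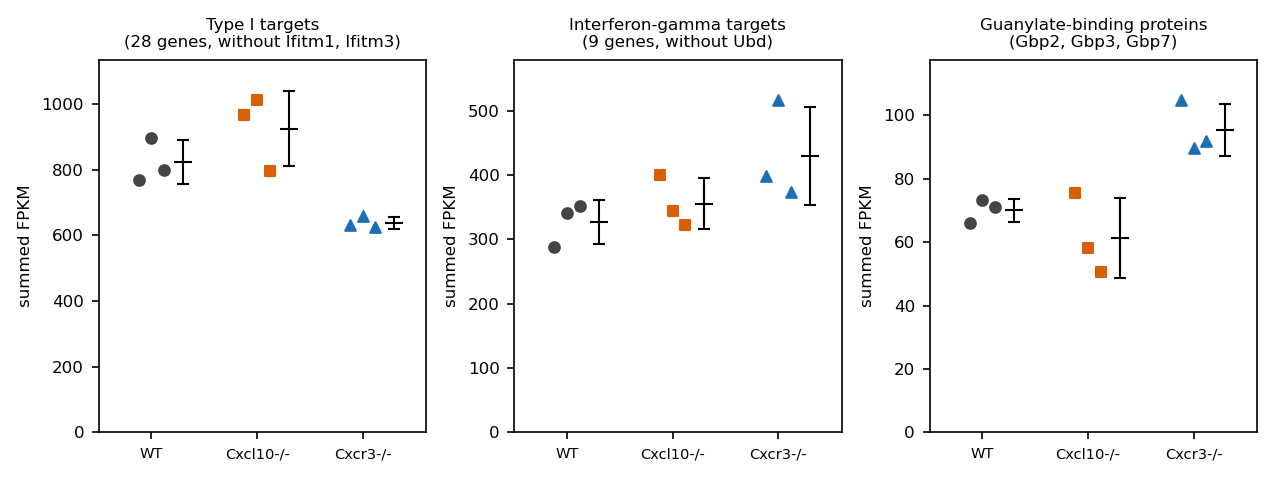
Summed FPKM per library (points) with the mean and SD of 3 libraries (bars) for type I targets without Ifitm1 and Ifitm3, interferon-gamma targets without Ubd, and the guanylate-binding proteins Gbp2, Gbp3 and Gbp7. Cxcr3-/- lies between 625 and 660 FPKM in the left panel, below all other libraries, and between 89.6 and 105 FPKM in the right panel, above all others.

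The type I targets on the lower side differed in function. Rtp4, Ifi35, Ifi44 and Ifitm1 were lower in all 3 Cxcr3-/- libraries than in any WT library. Rtp4, given above, had a log2 fold change of -1.20 ± 0.36 (edgeR adjusted p = 0.642, DESeq2 0.0223). Ifi44, which restrains the growth of some viruses, was at 37.9, 32.3 and 29.8 FPKM in WT, 55.5, 22.4 and 28.9 FPKM in Cxcl10-/- and 23.4, 13.5 and 11.3 FPKM in Cxcr3-/-. Its highest Cxcr3-/- library was below the lowest WT library (-1.13 ± 0.35, edgeR adjusted p = 0.642), and the Cxcl10-/- libraries spread from below to above WT. Ifi35, a partner of the interferon-induced protein NMI, was at 59.2, 47.4 and 54.7 FPKM in WT, 56.1, 61.1 and 48 FPKM in Cxcl10-/- and 28.5, 37.1 and 37.4 FPKM in Cxcr3-/-. WT and Cxcl10-/- overlapped for Ifi35, and Cxcr3-/- lay below both (-0.75 ± 0.23, edgeR adjusted p = 0.642). Ifitm1 had a log2 fold change of -0.59 ± 0.20 (edgeR adjusted p = 0.673), with Cxcr3-/- 1 far below the others, and without that library the log2 fold change was -0.33. Dtx3l, a ubiquitin ligase that pairs with PARP9, was at 12.2, 18 and 17.7 FPKM in WT, 18.8, 21.6 and 11.5 FPKM in Cxcl10-/- and 21.1, 18.1 and 18.5 FPKM in Cxcr3-/-. Dtx3l and Irf9 were the type I targets whose Cxcr3-/- libraries all exceeded WT. Summed over the 28 type I targets other than Ifitm1 and Ifitm3, the level was 769 to 897 FPKM in WT, 794 to 1012 FPKM in Cxcl10-/- and 625 to 660 FPKM in Cxcr3-/-. Rtp4 alone took 149 to 202 FPKM of this sum in WT and 55.5 to 115 FPKM in Cxcr3-/-.

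The summed levels of some markers of other cells also lay apart between Cxcr3-/- and WT, and each of these sums was carried mostly by 1 gene. Those of monocytes and macrophages summed to 227 to 408 FPKM in Cxcr3-/- and 559 to 689 FPKM in WT. Nearly all of that sum was Lyz2, at 661, 548 and 543 FPKM in WT, 370.2, 373 and 441 FPKM in Cxcl10-/- and 209.9, 391 and 318 FPKM in Cxcr3-/-, while Csf1r lay higher in every Cxcr3-/- library than in any WT library, at up to 4.38 FPKM. Megakaryocyte markers summed to 459 to 569 FPKM in Cxcr3-/- and 281 to 388 FPKM in WT, and most of this was Pf4, at 340.1, 247 and 254 FPKM in WT, 374, 259 and 238 FPKM in Cxcl10-/- and 418, 518 and 485 FPKM in Cxcr3-/-. The Ppbp and Gp1ba values of Cxcr3-/- and WT overlapped. Markers of conventional dendritic cells summed to 93.7 to 185 FPKM in Cxcr3-/- and 45.3 to 60.8 FPKM in WT. Most of that sum was H2-Ab1, a class II gene that interferon-gamma can induce, at 39.96, 50.2 and 53.9 FPKM in WT, 44.8, 29.5 and 71.3 FPKM in Cxcl10-/- and 87.3, 177 and 81.7 FPKM in Cxcr3-/-. Of the other dendritic markers, Zbtb46 reached 2.01 FPKM and Clec9a 5.39 FPKM in their highest libraries, and Xcr1, Itgax and Cd209a were at or near 0. Among the T and NK cell markers Nkg7 was at 170 to 404 FPKM over the 9 libraries and Klrb1c at up to 3.57 FPKM, while the other 8, Cd3e, Cd3d and Trac among them, were at or near 0. The part of these cells in the differences above was not tested.

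Cxcr3-/- and Cxcl10-/- were then compared with each other. Of the 38 genes 6 passed in edgeR, 2 higher and 4 lower in Cxcr3-/-, where 10.5% of all genes passed, 5.1% higher and 5.41% lower. limma called 2 higher and 4 lower, against 12.5% of all genes, 4.69% higher and 7.81% lower. DESeq2 called 2 higher and 7 lower, against 16.7% of all genes, 7.91% higher and 8.79% lower. At an unadjusted p under 0.05, 2 were higher and 9 lower in edgeR, against 26.2% of all genes, 12.5% higher and 13.7% lower. Without overlap 4 genes were higher and 8 lower, against 12.7% and 16.4% of all genes. The median log2 fold change was -0.43 over the type I targets, 0.35 over the interferon-gamma targets and -0.05 over all genes. Over 20 settings the type I median ranged from -0.54 to -0.26, the latter with the GC content and length correction. The interferon-gamma median ranged from 0.23 to 0.43, the former without Cxcl10-/- 3. With no filter on FPKM the median was 0.31 over the interferon-gamma targets and 0.38 over all genes, so this class did not lie above all genes there. The values below restate, from the other side, the Cxcl10-/- libraries used in the comparison with WT.

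Trim25 and Ubd fell in Cxcr3-/- against Cxcl10-/-, to levels inside or near those of WT. Trim25 differed by -1.30 ± 0.23 (edgeR adjusted p = 0.00660) and passed under each of the 20 settings of the analysis. Ubd differed by -4.58 ± 1.21 (edgeR adjusted p = 0.0324). Ifitm3 fell by 0.56 ± 0.16 on the log2 scale (edgeR adjusted p = 0.0415), with all Cxcr3-/- libraries below all Cxcl10-/- libraries and 1 of them far below. Xaf1 fell by 0.81 ± 0.23 (edgeR adjusted p = 0.0417), and here the 3 Cxcr3-/- libraries were all under 80 FPKM and the 3 Cxcl10-/- libraries all above 108 FPKM. Gbp3 and Cmpk2 rose. Gbp3 differed by 1.30 ± 0.36 (edgeR adjusted p = 0.0383) and Cmpk2 by 1.56 ± 0.43 (edgeR adjusted p = 0.0404). For both, every Cxcr3-/- library was above every Cxcl10-/- library. The endothelial markers moved here too, with 6 of 12 called lower in Cxcr3-/-, and their part was not tested. These 5 calls other than Trim25 were near the threshold: leaving out 1 library at a time, Ubd was lost in 4 of 9 cases (WT 2, Cxcl10-/- 3, Cxcr3-/- 2 and 3), Ifitm3 and Xaf1 in 7, and Gbp3 and Cmpk2 in 8, all without a change of direction. Ifitm3 kept its call without Cxcl10-/- 1 or Cxcr3-/- 2, Xaf1 without WT 1 or Cxcl10-/- 3, and Gbp3 and Cmpk2 without Cxcl10-/- 3. Corrected for GC content and length, an alternative chosen after the data had been seen, the log2 fold change of Ifitm3 was -0.25 and did not pass (edgeR adjusted p = 0.217), and Cmpk2 and Xaf1 did not pass either (0.0617 and 0.0525). Fitted on the 2 knockouts alone, Ifitm3, Xaf1, Gbp3 and Cmpk2 had edgeR adjusted p between 0.0831 and 0.113.

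Several more type I targets were lower in Cxcr3-/- than in Cxcl10-/- without passing in edgeR. Ifi44 (-1.13 ± 0.35, adjusted p = 0.0599), Ifi35 (-0.70 ± 0.23, 0.0760) and Rtp4 (-0.96 ± 0.36, 0.112) passed in DESeq2 only, of the 3 tools run on these genes with the same filter. Isg20, Ifitm1 and Ifi27 lay lower without overlap, with edgeR adjusted p of 0.130, 0.163 and 0.306. Ifit2 and Gbp7 lay higher without overlap, with edgeR adjusted p of 0.293 and 0.202.

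The spread within a genotype was widest in Cxcl10-/-, for these genes as for others. The median coefficient of variation of the tested members was 18.8% in WT, 32.4% in Cxcl10-/- and 18.4% in Cxcr3-/-, and over all tested genes it was 20.2%, 38.6% and 24.5%. In Cxcl10-/- 6 genes had an SD above 1 on the log2(FPKM + 1) scale: Dhx58, Gbp2, Ifit1, Ifit2, Ifit3 and Irf7. Which library was high differed between them. Irf7 was highest in Cxcl10-/- 1, while Dhx58, a regulator of RNA sensing, was highest in Cxcl10-/- 3, with 4.88, 5.57 and 4.68 FPKM in WT, 3.52, 5.63 and 18.4 FPKM in Cxcl10-/- and 4.86, 6.19 and 5.28 FPKM in Cxcr3-/-. Ifit1, which binds viral RNA, was also highest in Cxcl10-/- 3, with 7.18, 9.92 and 3.28 FPKM in WT, 2.97, 3.65 and 14.3 FPKM in Cxcl10-/- and 4.29, 8.0 and 5.88 FPKM in Cxcr3-/-. Ifit3, the partner of IFIT1, was at 1.64, 2.65 and 6.56 FPKM in WT, 0, 9.66 and 6.25 FPKM in Cxcl10-/- and 0.67, 1.09 and 2.89 FPKM in Cxcr3-/-, and Cxcl10-/- 1 was listed at 0. No single Cxcl10-/- library was thus highest for all of these genes. In WT and in Cxcr3-/- Ubd was the only tested member with an SD above 1 on that scale.

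The other 15 tested genes had no adjusted p under 0.207 in edgeR in any of the 3 comparisons. They were the factors Irf7 and Stat2, the RNA binders Ifit1 and Ifit3, the enzymes Oasl2, Rsad2 and Samhd1, the sensors and ligases Ifih1, Dhx58, Trim30a and Zbp1, the ISG15 protease Usp18, the virus tether Bst2, and the ADP-ribosyltransferases Parp9 and Parp14. Their log2 fold changes ranged from -0.34 to 0.98 in Cxcl10-/- against WT, from -1.26 to 0.30 in Cxcr3-/- against WT and from -1.74 to 0.48 in Cxcr3-/- against Cxcl10-/-. The widest of these belonged to Ifit3, with an SE of 1.33 and 1.34 in the last 2 comparisons. At that error a change of the size seen in Trim25 was not detectable for Ifit3.

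A further 61 interferon-stimulated genes outside the set were tested, from a list of 81. In Cxcl10-/- against WT 2 passed as higher and 3 as lower in edgeR, in Cxcr3-/- against WT none passed (2 higher and 2 lower at an unadjusted p under 0.05, none by limma or DESeq2), and in Cxcr3-/- against Cxcl10-/- 2 passed as higher and 5 as lower. These 5 and 7 calls among 61 genes stand beside 7.22% and 10.5% of all genes called, so their share is near that of the whole table. The list holds Cxcl10, which is deleted in 1 genotype and is among the calls in both comparisons with Cxcl10-/-. Trim56, a ubiquitin ligase as Trim25 is, was at 5.15, 3.27 and 4.22 FPKM in WT, 14, 10.3 and 7.98 FPKM in Cxcl10-/- and 6.18, 4.76 and 4.12 FPKM in Cxcr3-/-. Its Cxcl10-/- libraries were all above the 6 others, and it rose by 1.24 ± 0.28 (edgeR adjusted p = 0.0243). Shisa5 was at 69.4, 80.3 and 70.2 FPKM in WT, 117, 121 and 123 FPKM in Cxcl10-/- and 61.04, 82.7 and 77 FPKM in Cxcr3-/-. It rose in Cxcl10-/- by 0.63 ± 0.17 (edgeR adjusted p = 0.0488), and with the GC content and length correction its log2 fold change was 0.28 and did not pass. Ifi203, a DNA-binding protein of the nucleus, fell by 0.63 ± 0.15 (edgeR adjusted p = 0.0308), and with that correction its log2 fold change was -0.04. Leaving out 1 library at a time, Shisa5 lost its call in 8 of 9 cases, all but Cxcr3-/- 1, and Ifi203 in 5 (each WT library, Cxcl10-/- 1 and 3), while Trim56 lost it without WT 2 or WT 3. Gbp5, a guanylate-binding protein, fell by 5.07 ± 1.24 (edgeR adjusted p = 0.0323) from levels under 3 FPKM in WT, a call lost without any 1 WT library, without Cxcl10-/- 3 and without Cxcr3-/- 2.

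Between the knockouts, Eif2ak2, Oas1a, Trim12a, Trim56 and Shisa5 were the genes called lower in Cxcr3-/-, and Cxcl10 and Gbp5 those called higher. Eif2ak2, the kinase PKR that stops translation on double-stranded RNA, was at 14.6, 11.4 and 17.8 FPKM in WT, 11.3, 37.9 and 22.8 FPKM in Cxcl10-/- and 9.69, 6.25 and 8.41 FPKM in Cxcr3-/-. It was lower in all Cxcr3-/- libraries than in any other and fell by 1.54 ± 0.38 against Cxcl10-/- (edgeR adjusted p = 0.0244). Oas1a, which makes the messenger that activates RNase L, was at 14.3, 16.8 and 15.2 FPKM in WT, 46.1, 33.7 and 13.5 FPKM in Cxcl10-/- and 8.75, 15.3 and 9.36 FPKM in Cxcr3-/-. It fell by 1.44 ± 0.42 (edgeR adjusted p = 0.0463), although 1 Cxcl10-/- library lay within the Cxcr3-/- range. Trim12a fell by 1.10 ± 0.30 (edgeR adjusted p = 0.0352), and Trim56 and Shisa5 fell as well. Gbp5 rose by 5.06 ± 1.24 (edgeR adjusted p = 0.0243) from levels near 0 in Cxcl10-/-. The calls of Gbp5 and of Eif2ak2 in this comparison were lost without Cxcr3-/- 1 and without Cxcr3-/- 2, and that of Eif2ak2 also without Cxcr3-/- 3 or Cxcl10-/- 2. Those of Oas1a and Shisa5 were lost in 7 of 9 cases (kept without Cxcl10-/- 3 or Cxcr3-/- 2 for Oas1a, and without Cxcl10-/- 1 or Cxcr3-/- 2 for Shisa5), that of Trim12a in 6 (kept without Cxcl10-/- 1 or 2 or Cxcr3-/- 2) and that of Trim56 in 5 (kept without WT 1 or 2 or Cxcl10-/- 2 or 3). With the GC content and length correction Shisa5 and Oas1a did not pass in this comparison (edgeR adjusted p = 0.251 and 0.106). Tgtp2 and Gm12185, the other genes with the GAS and ISRE arrangement, did not pass in any comparison. Tgtp2 was at 442, 372 and 289 FPKM in WT, 294, 357 and 333 FPKM in Cxcl10-/- and 206, 413 and 212 FPKM in Cxcr3-/-, and Gm12185 was at 2.27, 0.49 and 1.51 FPKM in WT, 8.94, 2.1 and 2.36 FPKM in Cxcl10-/- and 2.09, 4.21 and 4.87 FPKM in Cxcr3-/-.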

How the data were processed

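RNA of LT-HSCs, sorted from 1 mouse per library, was amplified with a whole-transcriptome kit and sequenced. Per the submitters' processing notes, fastp, HISAT2, StringTie and RSEM were used; no versions are named. The genome build and the strand of counting are not given in sources used here. The authors deposited 1 table with expected counts and FPKM per gene and library; 87.1% of the expected counts were whole within 0.001. Libraries were grouped by the genotype in their labels, 3 per genotype.

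Expected counts were rounded and tested with edgeR 4.0.16 (TMM scaling, quasi-likelihood test, R 4.3.3) over all 9 libraries with 1 mean per genotype, for the 10866 genes that averaged 1 FPKM or more. Benjamini-Hochberg adjusted p-values under 0.05 over all tested genes were called. SE is the log2 fold change divided by the root of the F statistic. Levels are the deposited FPKM. Alternatives were limma 3.58.1 on log2(FPKM + 1) and log2(FPKM + 0.1), DESeq2 1.42.0, other scaling, filters and samples, a replicate block and each library left out. A correction for GC content and length was added after the data had been seen. The fits were tested on simulated data.

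The members, their division and the gene lists were chosen with earlier results of these data known. Genes named in full were members called in any comparison, the 5 highest in WT, and members whose groups did not overlap with a mean of at least 5 FPKM in either group; of other lists, up to 6 called genes each by p. Others named were chosen after their values were seen. Lists of other cell types served as a check, and 22267 of the 22322 gene IDs were found in GENCODE M21, which gave overlaps between genes. The values of 1 gene of the signalling list are not reported here.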

Additional observations from a re-analysis of the deposited data

How the results depend on the processing

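The number of the 38 genes called was 2 in Cxcl10-/- against WT, 0 for Cxcr3-/- against WT and 6 between the knockouts. In the first comparison it was 4 by DESeq2, 1 with the replicate block and 0 to 3 with 1 library left out (0 without WT 1 or WT 2). In the second it was 3 by DESeq2, 2 with no filter on FPKM (Rtp4 with an adjusted p of 0.00717 and Irgm2 with 0.0293, edgeR) and 0 with any library left out. In the third it was 2 when only the 2 genotypes compared were fitted and 1 to 5 with 1 library left out; by DESeq2 and with no filter it was 9, and with the GC content and length correction 4. With the replicate block 5 genes were called in the third comparison. Over all tested genes, the deviations of same-numbered libraries from their group means correlated at -0.0803 to 0.0186. No strong shared deviation was seen, but whether same-numbered libraries shared a litter or day cannot be told from this. Single log2 fold changes were followed over the settings only for members with an unadjusted p under 0.05 and for called genes of the other lists. None of these turned its direction: 557 kept their side of the threshold, 143 lost a call and 20 gained one. Other members did turn. Of the 28 type I targets, 16 lay above 0 in Cxcl10-/- against WT, but 20 by limma on log2(FPKM + 1) and 14 with the replicate block. Over all genes, edgeR called 383 higher and 402 lower in Cxcl10-/- against WT, limma 663 and 345, and DESeq2 1498 in all; in Cxcr3-/- against WT the counts were 0, 0 and 78, and 38 with no filter. In Cxcr3-/- against Cxcl10-/- edgeR called 554 higher and 588 lower, limma 510 and 849 and DESeq2 1814 in all, and fitting only the 2 genotypes compared gave 423, against 414 for Cxcl10-/- and WT, where the block gave 442 and no filter 1183. With 3 libraries a group, genes with few counts such as Ifit3 were measured too loosely for a change of ordinary size to pass.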

Other observations

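The length implied by the ratio of counts to FPKM is a value that a reader of these data may want to look at. For the 5381 genes with at least 5 FPKM in every library, it was the same within 1% in all libraries for 37.1% and varied by over 1.2 times for 25.0%. Among the interferon-induced genes it varied most for Ifih1, from 3616 to 5309 bases, and for Xaf1, from 1025 to 1403 bases. For such genes FPKM and counts give different sizes of change between libraries.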
